A study of Mus musculus with 5 samples.

Results

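The regions described here are 957 H3K27ac peaks that lay at an end of a non-coding RNA gene and at no end of a protein-coding gene. They were chosen by position alone, from chromosomes 1 to 19. A peak was a member when it was under 4000 bp wide, its summit was more than 1 kb from every protein-coding gene end, and its summit was within 1 kb of an end of a long non-coding RNA (lncRNA), miRNA, snoRNA, snRNA, tRNA or other non-coding RNA gene of RefSeq GRCm38. Pseudogenes and immune-receptor segments did not count. The 957 members were 4.23% of the 22618 peaks on these chromosomes (95% Wilson interval 3.98 to 4.50%), in a list of 22948 peaks. Of the other peaks, 7155 had a summit at a protein-coding end, 13942 at no end, and 564 reached the width limit.

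All libraries came from mouse bone marrow cells sorted as CD45.2+, Lineage-, Sca1+ and Kit+, which the labels call HSC/MPP (haematopoietic stem cells and multipotent progenitors). Every one had the genotype Mll3/4 deleted, the Input included, and no treatment, age or strain is given in the sources used here, nor is the Cre driver or the number of animals. Mll3 and Mll4 are histone H3 lysine 4 methyltransferases. There were 4 H3K27ac libraries and 1 Input library, made by ChIPmentation, in which the Tn5 transposase cuts and tags immunoprecipitated chromatin while it is still on the beads. The deposited list holds 1 set of values for the 4 H3K27ac libraries together, so no value below has a replicate error and nothing was compared between genotypes. Intervals cover counting error over peaks or genes only, and read depth is unknown. Among genes that mark the sorted cells, a peak summit lay within 1 kb of an end of Kit (signal 4.68), Flt3 (6.58) and Slamf1 (3.21), and of none for Ly6a (which encodes Sca1), Cd34 or Ptprc (CD45). Of the markers of other cells that are reported here, Cd3e, Cd4 and Cd8a (T cells) and Ly6g and Itgam (myeloid cells) had none.

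H3K27ac is laid down on nucleosomes beside active promoters and enhancers. Non-coding RNA genes use several kinds of promoter: lncRNAs and snoRNA host genes are transcribed by RNA polymerase II, most spliceosomal snRNAs by RNA polymerase II from short promoters of their own, and tRNAs, 7SK, 7SL and Y RNAs by RNA polymerase III. Most snoRNAs and many miRNAs are cut from longer transcripts, so an end of such a gene need not be near the place where its transcription begins.

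The promoters of the 4 strongest lncRNA members are shown for the letters at their starts. For 4930578M01Rik and 4930481A15Rik all 300 bases lay under the peak, and for 4930528A17Rik 280 did. The Chaserr stretch lay between its 2 member peaks and under neither. Each run below is the RefSeq GRCm38.p6 stretch from 250 bases before to 50 bases after an annotated start, 300 bases in all, 5′ to 3′ on the gene's strand. Capitals mark letters that match 1 of 12 motifs searched on both strands, which in these promoters were the GC box (bound by Sp and KLF factors), the CCAAT box, the PU.1-type ETS letters, the Runx letters, the E-box of the E2A type and the Ebf1 core. Their letters are spelled out with their shares over all promoters. A stretch could count for several motifs. A match is a description of the letters and not a binding site. The order is by signal value, the authors' enrichment of H3K27ac over background at the peak: 17.5 for 4930528A17Rik (promoter chr4:21848399-21848698, minus strand), 16.0 for 4930578M01Rik (chr15:98985715-98986014, plus strand), 16.0 for 4930481A15Rik (chr19:5406565-5406864, plus strand) and 15.002 for Chaserr (chr7:73558346-73558645, minus strand).
4930528A17Rik: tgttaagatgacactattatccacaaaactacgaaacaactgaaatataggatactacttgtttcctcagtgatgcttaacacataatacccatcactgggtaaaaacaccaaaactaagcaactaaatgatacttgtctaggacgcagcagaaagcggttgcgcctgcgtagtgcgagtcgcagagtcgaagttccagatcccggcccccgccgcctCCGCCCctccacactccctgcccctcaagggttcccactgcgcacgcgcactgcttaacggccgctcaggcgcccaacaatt
4930578M01Rik: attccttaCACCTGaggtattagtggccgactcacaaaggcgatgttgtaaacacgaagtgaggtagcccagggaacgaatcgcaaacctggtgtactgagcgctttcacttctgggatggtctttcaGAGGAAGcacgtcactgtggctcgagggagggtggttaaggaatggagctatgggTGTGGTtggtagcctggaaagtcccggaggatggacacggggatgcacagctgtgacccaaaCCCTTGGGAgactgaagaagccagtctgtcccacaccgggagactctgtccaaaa
4930481A15Rik: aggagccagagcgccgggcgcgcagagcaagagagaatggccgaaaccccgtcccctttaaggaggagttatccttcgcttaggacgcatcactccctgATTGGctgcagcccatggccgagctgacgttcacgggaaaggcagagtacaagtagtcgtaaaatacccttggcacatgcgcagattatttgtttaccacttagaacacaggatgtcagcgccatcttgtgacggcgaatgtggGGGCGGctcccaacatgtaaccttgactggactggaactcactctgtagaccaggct
Chaserr: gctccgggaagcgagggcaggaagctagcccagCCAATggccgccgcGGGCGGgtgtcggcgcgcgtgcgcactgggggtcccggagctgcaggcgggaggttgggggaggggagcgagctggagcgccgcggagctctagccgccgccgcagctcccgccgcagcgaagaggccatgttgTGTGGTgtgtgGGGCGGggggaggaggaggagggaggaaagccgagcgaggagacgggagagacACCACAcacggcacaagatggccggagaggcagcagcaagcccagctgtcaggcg
These 4 sequences held 18, 11, 17 and 30 CpG dinucleotides, above the median of 7 over all 31396 starts with a promoter sequence. 4930528A17Rik has its start inside the protein-coding gene Pnisr, with the summit 238 bp downstream of the start. No strand or start was available for Pnisr, so an inner start of Pnisr near this peak could not be looked for. Chaserr is the lncRNA next to Chd2, known for restraining the expression of that chromatin remodeller gene. Its summit lay 847 bp downstream of the start, and a second member, of signal 6.18, lay 966 bp upstream.

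For miRNA genes the sequence that acts is the mature RNA, and its seed (bases 2 to 8, in capitals) pairs with targets. The mature RNAs shown belong to miRNAs of blood cells with a member at an end of their hairpin gene.
mmu-let-7i-5p: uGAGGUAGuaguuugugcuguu
mmu-miR-196b-5p: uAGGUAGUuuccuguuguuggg
mmu-miR-23a-3p: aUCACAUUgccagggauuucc
mmu-miR-27a-3p: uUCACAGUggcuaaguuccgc
mmu-miR-24-3p: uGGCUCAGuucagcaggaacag
mmu-miR-142a-3p: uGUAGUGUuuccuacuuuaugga
mmu-miR-142a-5p: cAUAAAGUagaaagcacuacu
mmu-miR-155-5p: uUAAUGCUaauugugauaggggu
The mature sequences are those of RefSeq GRCm38.p6. Of 41 miRNA genes with a member, 37 were matched to 60 mature sequences, and their 60 seeds were all different, so no seed family held more than 1 of them.

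By the gene whose end was nearest the summit, 818 members were at lncRNAs, 38 at tRNAs, 37 at snRNAs, 36 at miRNAs, 16 at snoRNAs and 12 at other non-coding RNAs. Most were at little-studied genes: 813 members (85.0%) had a provisional symbol (Gm, LOC or Rik). Of all members, 83 lay within 1 kb of several non-coding genes, and 200 shared their nearest gene with another member. Members at 1 gene share their surroundings and are not independent of each other. In all, 935 non-coding genes had a member. Non-coding ends were often also protein-coding ends: of 1911 peaks of admissible width at a non-coding end, 954 (49.9%) were within 1 kb of a protein-coding end and so were not members, and a further 31 peaks missed the rule by their width only.

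Few non-coding genes carried a member, and tRNA genes did so more often than the other classes. Among genes with an end more than 1 kb from every protein-coding end, 919 of 15856 (5.80%) had a member. For protein-coding genes, 33.8% (6986 of 20665) had a peak of the same width limit at an end. The share was 16.8% for tRNA genes (58 of 345, interval 13.2 to 21.1%), 6.15% for lncRNAs (750 of 12190), 5.53% for other non-coding RNAs (11 of 199), 3.99% for snRNAs (36 of 903), 3.90% for miRNAs (39 of 1000) and 2.05% for snoRNAs (25 of 1219). The interval of the tRNA share did not overlap that of any other class. It takes genes as independent, but tRNA genes shared peaks (47 members were at 62 tRNA genes), so it is too narrow. The share was also uneven, at 6.73% on chromosome 13 and 21.2% on the other chromosomes.

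**Figure D1:**
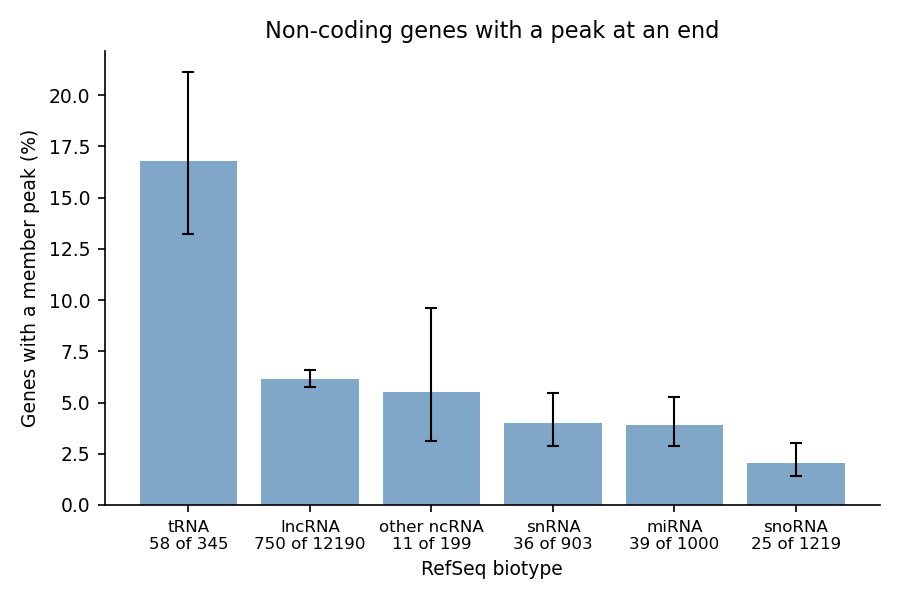
Share of non-coding genes with a member peak (percent, vertical axis) for each RefSeq biotype, among genes with an end over 1 kb from all protein-coding ends; bars are shares and error bars 95% Wilson intervals over genes. The tRNA genes stand at 16.8%, and the other 5 classes lie between 2.05% and 6.15%.

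The members had a lower median signal than peaks at protein-coding ends and a higher one than peaks at no end. Their median signal value was 3.33 (95% interval of the median 3.24 to 3.46), with quartiles of 2.72 and 4.80 and a range of 1.79 to 17.5. The median was 4.22 at protein-coding ends (4.19 to 4.28) and 2.90 at no end (2.90 to 2.94), against 3.27 over all peaks. The members also lay nearer to protein-coding ends than peaks at no end did, at a median of 15.9 against 23.9 kb. At matched distance to a protein-coding end, the intervals of members and peaks at no end overlapped at 1 to 2 kb (3.39 to 4.25 and 3.36 to 3.58) and beyond 100 kb (2.78 to 3.18 and 2.81 to 2.87). The members' interval was the higher one at 2 to 5 kb (3.30 to 4.04 and 2.98 to 3.09), 5 to 20 kb (3.30 to 3.73 and 2.92 to 3.00) and 20 to 100 kb (3.09 to 3.41 and 2.81 to 2.85). Over all distances the intervals of the 3 groups did not overlap, but the quartile ranges did, so a single peak's strength did not tell its class. Among peaks with a −log10 q of at least 5, the intervals of members (median 5.42) and protein-coding ends (5.51) overlapped. A q-value of at most 0.05 was reached by 787 members (82.2%, interval 79.7 to 84.5%), beside 78.7% of all autosomal peaks. A −log10 q of at least 5 was reached by 370 members (38.7%, 35.6 to 41.8%), beside 36% of all autosomal peaks, so on both thresholds the members were near the list as a whole. The share past the second threshold was 57.6% at protein-coding ends and 22.3% at no end. Median widths were 885 bp for the members, 923 bp at protein-coding ends and 789 bp at no end.

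**Figure D2:**
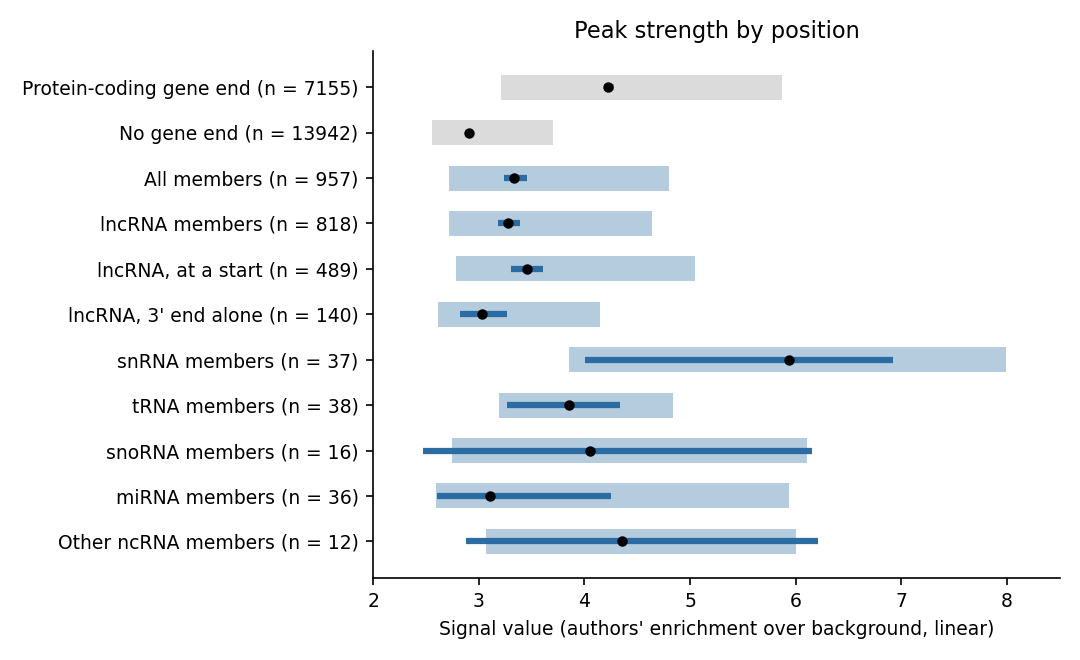
Signal value (the authors' enrichment, linear horizontal axis) of peaks by position, with the number of peaks in each row; dots are medians, thick lines their 95% intervals and pale bars the quartile range. The members (3.33) lie between peaks at protein-coding ends (4.22) and at no end (2.90), and the snRNA members (5.94) are the highest row.

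The lncRNA members lay mostly at starts. Strand was known for the nearest gene of 629 of the 818, and 489 of these (77.7%, 74.3 to 80.8%) had the summit within 1 kb of a start, 28 of which were also within 1 kb of the 3′ end. The other 140 (22.3%) were at the 3′ end alone. At protein-coding ends the share at a start was 95.2% (5560 of 5841), and 4.81% were at the 3′ end alone. Counted over 7027 lncRNA genes longer than 2 kb with both ends clear of protein-coding ends, 346 starts (4.92%, 4.44 to 5.45%) and 107 3′ ends (1.52%, 1.26 to 1.84%) had a member, and 20 genes had both. Members at lncRNA starts had a higher median signal than those at 3′ ends, 3.46 (3.30 to 3.61) against 3.03 (2.82 to 3.27). Once peaks with q-values above 0.05 were left out, the intervals of these medians (3.72 and 3.43) overlapped. Protein-coding 3′ ends had a median of 3.12 (281 peaks), and protein-coding starts 4.28.

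Summits were spread more widely around lncRNA starts than around protein-coding starts. The median summit was 147 bp downstream of a lncRNA start (52 to 190), with quartiles at −394 and 434 bp, and 56.6% were downstream. For protein-coding starts the median was 262 bp downstream (253 to 270), and 70.6% were downstream.

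**Figure D3:**
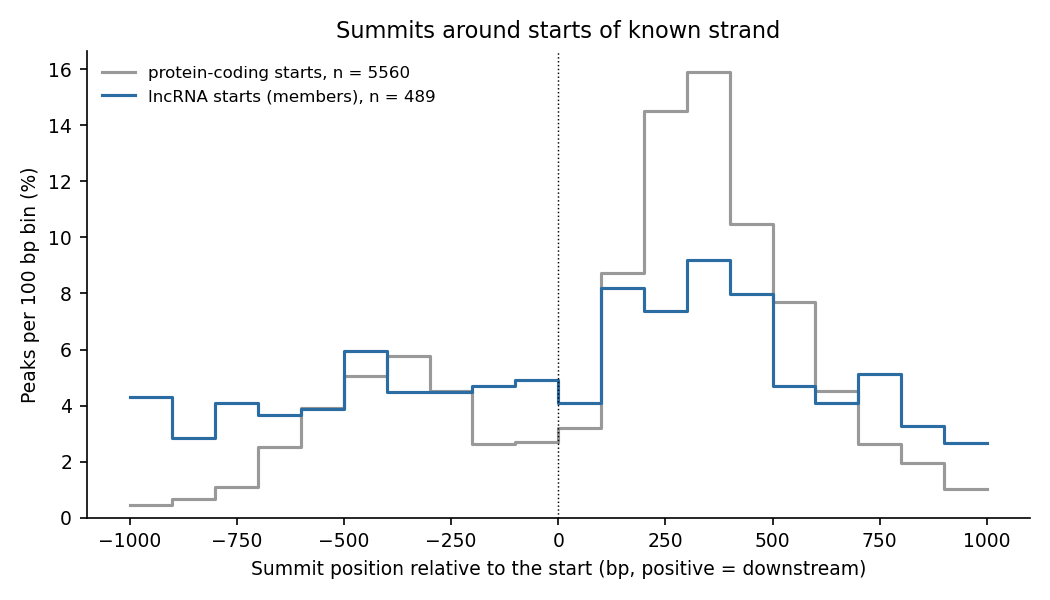
Percent of peaks in each 100 bp bin (vertical axis) by summit position relative to the nearest start in bp (horizontal axis, positive downstream), for 489 lncRNA members and 5560 peaks at protein-coding starts. The protein-coding curve has its main mode between 200 and 400 bp downstream and a lower one upstream, with a dip at the start, and the lncRNA curve is flatter.

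Strength also went with distance to the non-coding end. The median summit was 416 bp from it, and the median signal was 3.69 within 250 bp, 3.50 from 250 to 500 bp, 3.09 from 500 to 750 bp and 3.14 beyond. At the limits of the rule, the 3 members farthest from their non-coding end were 998 bp away (Gm40899, Gm41517 and Gm15952, with signals of 7.07, 2.63 and 6.82), and the nearest peaks left out were 1004 to 1005 bp away (2.97, 2.66 and 3.52). The 3 members closest to a protein-coding end had signals of 7.499 (F830010H11Rik, 1003 bp), 4.99 and 5.42, and the 3 just inside that distance 3.09, 2.84 and 3.00. The widest members measured 3902 to 3986 bp (7.22, 7.44 and 6.91), and the narrowest left out 4037 to 4054 bp (7.28, 5.84 and 6.28).

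Members were less often inside a protein-coding gene than other peaks were. This held for 403 members (42.1%, 39.0 to 45.3%), 70.2% of peaks at no end and 77.5% at protein-coding ends. Among members at lncRNA starts it was 42.7% (209 of 489 peaks). This was above the 28.4% of all lncRNA genes with a start clear of protein-coding ends (2305 of 8106 genes). Some genes held several such peaks, so these shares count different units. Where both strands were known, 175 of 186 member peaks at lncRNA starts inside a protein-coding gene (94.1%) were at lncRNAs antisense to it. Counted over genes, the share was 90.1% of all annotated lncRNAs placed this way, and the intervals overlapped. For 107 members (11.2%) an annotated inner start of a protein-coding gene lay within 1 kb of the summit, beside 6.49% of peaks at no end, and among members at lncRNA starts for 85 (17.4%). Such a peak cannot be told apart from one of that inner start. 1700055D16Rik is one, its signal of 12.7 lying at an inner start of Dusp16, which encodes a MAP kinase phosphatase. The 107 members had a median signal of 3.96 (3.64 to 4.65), and peaks at no end beside such an inner start had 4.04 (3.88 to 4.19), so there the members were not above peaks at no end. No inner start was found for the other 850 members, which had 3.27 (3.18 to 3.39). Peaks at no end without one had 2.87 (2.86 to 2.88). Starts were not available for chromosome 18 (24 members) or for part of the protein-coding genes elsewhere. The 107 members and the 6.49% are therefore minima, and the 850 include members that could not be checked.

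lncRNA starts with a member were richer in CpG than lncRNA starts without a peak, and poorer than protein-coding starts with one. The median was 7 CpG per 300 bases over 486 lncRNA starts with a member, 3 over 9286 without a peak, and 23 over 7271 protein-coding starts with a peak. At least 10 CpG stood in 39.5%, 9.82% and 88.5% of them. The share of lncRNA starts with a member was 2.71% with under 5 CpG, 4.89% with 5 to 9, 10.0% with 10 to 19 and 36.0% with 20 or more (109 of 303, 30.8 to 41.5%). Among starts with no annotated protein-coding start within 1 kb, the last share was 34.3% (70 of 204). Protein-coding starts had a peak in 4.52%, 18.6%, 45.5% and 59.2% of these classes. Strength went with CpG as well, the median signal of the members being 2.90, 3.24, 4.33 and 4.45 across the 4 classes.

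**Figure D4:**
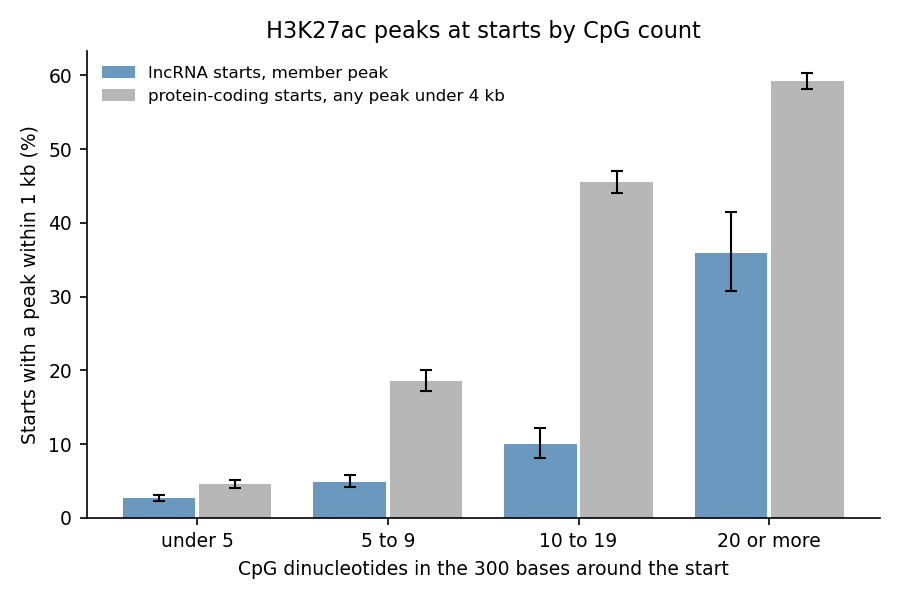
Percent of starts with a peak within 1 kb (vertical axis) by the number of CpG dinucleotides in the 300 bases around the start, for lncRNA starts with a member and protein-coding starts with any peak under 4000 bp; error bars are 95% Wilson intervals over starts. Both shares are higher in each class of more CpG, from 2.71% to 36.0% for lncRNAs and from 4.52% to 59.2% for protein-coding genes.

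The share of promoters holding a motif differed between lncRNA starts with and without a peak for most motifs searched. The GC box GGGCGG was in 29.2% of the lncRNA promoters with a member (25.4 to 33.4%), 9.62% of those without a peak and 36.0% of all promoters. CCGGAAG, the core bound by many ETS factors, was in 8.02%, 2.58% and 9.004%. Both hold CpG or many G and C letters. No correction for base composition was made for these or any other motif. The median GC content was 52.7% at lncRNA starts with a member and 47.3% at those without a peak. The PU.1-type letters GAGGAAG were in 17.5% (14.4 to 21.1%), 13.4% and 13.4%. The Ebf1 core CCCNNGGGA was in 7.82% (5.75 to 10.55%), 4.75% and 6.68%, so the share of all promoters lay inside the interval of those with a member. AGATAA, the GATA motif, was the other way, with 8.02%, 15.7% and 11.2%, as was the TATA box TATAAA with 11.5%, 16.95% and 13.6%. CCAAT was in 30.2%, 36.5% and 37.3%. The Runx letters TGTGGT (19.1%, 21.3% and 16.7%), the E-box CAGGTG (22.8%, 20.8% and 20.5%) and the interferon-response core GAAANNGAA (9.26%, 9.68% and 8.52%) had overlapping intervals with and without a peak. The NRF1 letters GCGCATGCG (1.23%, 0.291% and 1.74%) and the CRE TGACGTCA (1.44%, 0.732% and 1.83%) were rare.

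Many snoRNAs are carried in the introns of host genes, some of which are lncRNAs. Of 20 lncRNA hosts looked up, 19 had an end clear of protein-coding ends and 10 had a member, beside 6.15% of all lncRNA genes with a clear end. Snhg8 had the strongest, at 12.5, and another at 5.20 within 1 kb of both its end and Snora24. Snhg9 had 6.15, in a peak inside Rps2 that cannot be told apart from one at an inner start of that gene. Snhg3 had 6.09, Snhg12 5.32, Snhg7 5.20, Snhg5 4.37, Snhg20 3.73, Snhg16 3.72, Snhg17 2.69 and Snhg4 2.66. The median of these 11 peaks was 5.20, and all but those of Snhg17 and Snhg4 were above the members' median of 3.33. The Snhg4 peak had a q-value above 0.05. The lists of genes used here were drawn up with results of these data known, so their counts are descriptions.

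Of 30 much-studied autosomal lncRNAs, 7 had a member, beside the same 6.15%. Dleu2, host of the miR-15a and miR-16-1 hairpins, had one on each side of its start, of 10.5 (453 bp downstream) and 7.59 (608 bp upstream). Oip5os1 (5.75) and Dancr (5.51) came next. The p53 target Trp53cor1 (3.46), the imprinted antisense RNA Kcnq1ot1 (3.40) and Mir22hg (3.30) were near the members' median. The 2 peaks of the imprinted Peg13 (2.97 and 2.37) were under it, and the weaker had a q-value above 0.05. Of other lncRNAs, 4930578M01Rik, D730003I15Rik (11.8), 1700113A16Rik (11.7) and Gm17801 (11.1) were among the 15 strongest members.

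Genes of small structural RNAs had the highest median signal of the lists. Of 24 autosomal genes, 18 had an end clear of protein-coding ends and 14 had a member, beside 5.80% of all non-coding genes with a clear end, with a median of 6.92 over 15 peaks. Rn7sk, the 7SK RNA that holds the elongation factor P-TEFb inactive, lay at a peak of 12.2, which was also at the start of the lncRNA C920006O11Rik. Rn7s2, a 7SL RNA of the signal recognition particle, had 11.0, and the Y RNAs Rny1 and Rny3 had 10.4 and 5.54. Among spliceosomal RNAs, Rnu2-10 (U2) had 8.75, Rnu1a1 (U1) 8.26, Rnu11 (U11, of the minor spliceosome) 7.99 and Rnu5g (U5) 6.92. The U3 snoRNA genes Rnu3b1 to Rnu3b4, which act in ribosomal RNA processing, had 5 members between 3.30 and 7.04. Terc, the RNA template of telomerase, had 5.94, and the vault RNA gene Vaultrc5 had 4.71.

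**Figure D5:**
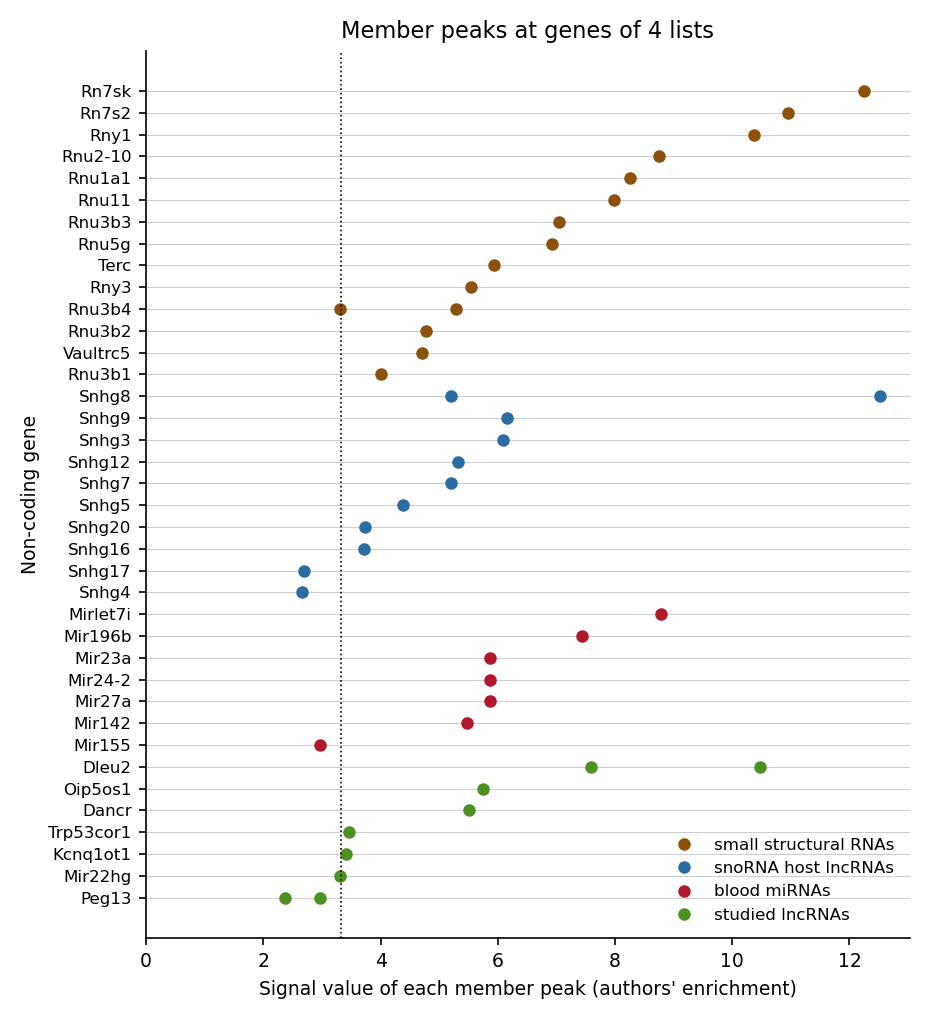
Signal value of each member peak (horizontal axis, the authors' enrichment) at the genes of 4 lists, each dot being 1 peak and the dotted line the median of all members (3.33). Mir23a, Mir27a and Mir24-2 share 1 peak, and 14 of the 15 peaks at small structural RNA genes lie to the right of the line.

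By class, the 37 snRNA members had the highest median signal, 5.94 (4.01 to 6.92), and 28 of them (75.7%, 59.9 to 86.6%) had a −log10 q of at least 5, beside 36% of all peaks. The strongest were Gm22614 (11.0), Gm25099 (10.7) and Gm25541 (10.3). The class follows the RefSeq biotype, under which the U3 genes Rnu3b1 to Rnu3b4, with 5 of these members, are listed as snRNA although U3 is a snoRNA. The snRNA members were clustered: 21 lay within 50 kb of another snRNA member, and 7 (the 5 at U3 genes among them) had Tex14 as the nearest protein-coding gene, with signals of 3.30 to 8.26. Many snRNA, tRNA and 7SL genes have near-identical copies, so the reads behind these peaks are uncertain in their placement. How reads with several matches were treated is not given in the sources used here.

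The tRNA members were narrow, with a median width of 699.5 bp against 885 bp for all members, and their median signal was 3.85 (3.27 to 4.34). The strongest, 13.6, was at n-TMcat8, a methionine tRNA gene, followed by n-TRcct1 for arginine (10.1) and n-TGtcc2 for glycine (9.24). Counting every tRNA end within 1 kb, 47 members were at 62 tRNA genes, which covered 19 of the 20 amino acid letters in the gene names and 15 chromosomes. Chromosome 13 carries 105 of the 391 tRNA genes, and 7 of the 104 there with a clear end had a member (6.73%, 3.30 to 13.2%), against 51 of 241 on the other chromosomes (21.2%, 16.5 to 26.8%). Only 1 of the 38 tRNA members was inside a protein-coding gene.

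Of 58 autosomal miRNA genes known from blood (52 with a clear end), 7 had a member, in 5 peaks, beside 3.90% of all miRNA genes with a clear end. Of 30 miRNA genes known from other tissues none had, a count from which nothing can be read next to that share. The sequences of the blood miRNAs are printed above. Mirlet7i, of the let-7 family, had 8.79. Mir196b, in the Hoxa cluster beside Hoxa10, had 7.44 in a peak 3943 bp wide. Mir23a, Mir27a and Mir24-2 are 1 cluster and shared a peak of 5.88. Mir142, a hairpin abundant in blood cells, had 5.48, and Mir155, induced in activated lymphocytes and macrophages, had 2.97. Over the 36 members nearest to a miRNA gene, the median was 3.10 (2.61 to 4.25), and the strongest were Mir1893 at 11.5 and Mir5620 at 11.1, the latter in a peak at an inner start of Clcn4 from which it cannot be told apart. The 16 snoRNA members had a median of 4.05 (2.48 to 6.15) and the widest median width, 1396.5 bp. LOC115487884, near Myo1g, was the strongest of them at 15.1, followed by Snord58b (8.94) and Snord49a (8.33), which guide the methylation of ribosomal RNA. Mir1893 lies inside Epc1 and Snord58b inside Rpl17, both on chromosome 18, where inner starts could not be looked for.

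For lists of blood cell genes, the members were those whose nearest protein-coding gene was on the list, at any distance. Over all protein-coding genes, 764 of 20665 (3.70%) were the nearest one of a member. Of 27 B-cell genes 4 were, with 7 members. Pax5, the factor that commits cells to the B lineage, had 3 at 5.004 to 30.3 kb, at 5730488B01Rik (5.17 and 3.33) and Gm12462 (3.43). Bcl11a, a factor of early lymphoid cells, had 2.87 at Gm33440 (48.0 kb away) and 2.63 (85.7 kb). Bach2 had 2.66 at Bach2os (14.6 kb), and Sox4 had 2.26 (239 kb). The Bach2, Sox4 and weaker Bcl11a peaks had q-values above 0.05, so Bach2 and Sox4 counted through such peaks only. Of 24 stem cell genes 4 were, with 9 members. Hoxa10 had 7.44 (Mir196b) and 3.52 (Gm52902), both under 2 kb away. Etv6 had 4.25 (Gm52920, 84.3 kb), and also 2.45 and 1.98, both with q-values above 0.05. Cd34 had 3.30 (Gm16897, 15.7 kb). Myb had 3.18 and 3.15 at Gm33619 (27.8 and 26.1 kb) and 2.75. Of 20 myeloid genes 1 was, with 2 members. It was Cebpb, which encodes a factor of granulocyte and macrophage genes, with peaks at Gm32287 (8.10, 87.3 kb away) and A530013C23Rik (4.30, 7.94 kb). The nearest protein-coding gene of a member had a peak at its own end in 46.6% of cases (43.5 to 49.8%), and for peaks at no end in 51.5% (50.6 to 52.3%). In all, 5 members lay in the immunoglobulin heavy chain locus, with signals of 2.78 to 7.07.

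Several members at 1 gene were uncommon. There were 115 genes with at least 2 members and 7 with at least 3. Gm29638 and the overlapping 1810019N24Rik, near Zfp324, had 4 and 3, with signals between 2.45 and 6.76 over the locus. Gm33619 near Myb had 3. By chromosome, the members were between 2.69% of peaks (chromosome 15) and 5.06% (chromosomes 5 and 11).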

How the data were processed

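H3K27ac was measured in 4 libraries against 1 Input library. Reads were processed with BWA and MACS2 on build mm10, per the submitters' processing notes; their versions, filters and the depth are not given in the sources used here. The deposited narrowPeak list is pooled over the libraries. Its signal value was read as the authors' fold enrichment (a ratio), beside a deposited score and the −log10 of the authors' p-value and of their q-value. Members went down to a −log10 p of 2.05, so the list also holds peaks with a q-value above 0.05. These values only describe, rank or filter peaks.

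Gene ends came from RefSeq GRCm38.p6 (49997 genes), and strand and promoters from its promoter table, which gave a strand for 9291 of 12408 autosomal lncRNAs; genes without one were left out of start and 3′ end counts. Coordinates are 1-based. misc_RNA genes were counted as other non-coding RNA (7 members). Intervals on shares are 95% Wilson intervals, and those on medians are distribution-free order-statistic intervals. No test between groups was made, since there are no per-library values. Named genes were the strongest members of all, the 3 strongest per biotype, and the members of the gene lists. Some of the cell type markers looked up are not reported here, so the marker check is not complete. The members and lists were chosen with earlier results of these data known. The scripts used Python 3.11.15, pandas 2.3.3, NumPy 2.4.6, SciPy 1.17.1 and statsmodels 0.14.6, and were tested on simulated data. Alternatives were other windows, stricter peaks, other gene models and any overlap in place of the summit.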

Additional observations from a re-analysis of the deposited data

How the results depend on the processing

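The main limits are that the list is pooled over libraries, that depth and treatment of reads with several matches are unknown, and that the gene models decide membership. No paired analysis was possible because values of single libraries are not in the pooled list, and for the same reason no library could be left out. Over 11 alternatives and 13 results, 81 of 141 recomputed values moved by less than their interval (counts by less than 1.5 times) and 60 moved. In all 11 the medians kept their order, with peaks at protein-coding ends over members, members over peaks at no end, and lncRNA members at starts over those at 3′ ends. The intervals of members and peaks at no end stayed apart in all 11. Those of members and protein-coding ends overlapped in 3 (−log10 q of at least 5, signal of at least 4, no provisional models). Those of lncRNA starts and 3′ ends overlapped or touched in 5 (both of these peak thresholds, q-values of at most 0.05, the 2.5 kb window, any overlap), and without provisional models the 3′ end had no interval. The alternatives without misc_RNA genes and without members at inner protein-coding starts were chosen after seeing the data. Beyond the alternatives' own construction (fewer or more peaks and genes admitted), the cause of a move was not tested.

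With a 500 bp window there were 582 members at 590 genes, with a median signal of 3.58 (3.67 at lncRNA starts), 84.9% with a q-value of at most 0.05, 82.8% at lncRNAs and a median distance of 264 bp. With a 2.5 kb window there were 1674 members at 1482 genes, with 3.19 (3.27 at lncRNA starts), 79.1% past that q-value, 47.4% inside protein-coding genes and 823 bp. With 2.5 kb required from protein-coding ends, 37.0% of members were inside protein-coding genes, and the signal was 4.07 at protein-coding ends and 2.87 at no end.

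With q-values of at most 0.05 only, the signal was 3.70 for members, 3.72 at lncRNA starts, 3.43 at 3′ ends, 4.41 at protein-coding ends and 3.27 at no end, and the member width 1022 bp. With a −log10 q of at least 5, 370 members at 413 genes had 5.42, with 5.60 at lncRNA starts, 4.99 at 3′ ends, 5.51 at protein-coding ends and 4.90 at no end. Their width was 1428.5 bp, their distance 350.5 bp, 79.7% were at lncRNAs and 82.8% of lncRNA members at a start. With a signal value of at least 4, 354 members at 395 genes had 5.52, with 5.71 at lncRNA starts, 5.21 at 3′ ends, 5.62 at protein-coding ends and 5.08 at no end. Their width was 1468.5 bp, their distance 349.5 bp, 100% passed the q-value, 80.5% were at lncRNAs and 83.4% of lncRNA members at a start.

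With any overlap in place of the summit, 61.9% of lncRNA members were at a start, the distance was 505 bp and the signal at no end 2.87. Without provisional gene models, 153 members at 177 genes had 3.88, with 3.82 at lncRNA starts and 2.68 over only 3 peaks at 3′ ends. Of these, 88.2% passed the q-value, 32.7% were at lncRNAs and 31.4% inside protein-coding genes, 92.5% of lncRNA members were at a start, and the distance was 340 bp. Without members at an annotated inner protein-coding start, 34.8% were inside protein-coding genes.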
